A study of Homo sapiens with 32 samples.

Results

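A673 is a Ewing sarcoma cell line. The A673 knockouts of STAG2, STAG1, EZH2 and SUZ12 in the series were all made in a single A673 clone. It carries Cas9 under a doxycycline-inducible promoter at the AAVS1 locus, inside PPP1R12C. That clone, left unedited, is the WT clone (genotype iCas9 in the labels), and the line it came from is the parental line (genotype WT). Both keep STAG2, and together they served as the STAG2-proficient controls of the A673 knockouts. Their members here were taken by sample label: 5 WT clone libraries (Ra and Rb of experiment 1, R1 and R2 of experiment 2, 1 in experiment 3) against 3 parental libraries (1 in each experiment), 8 of the 32 samples of the series. The other 14 libraries of the same 3 experiments came from edited clones (5 STAG2 KO, 3 STAG1 KO, 3 EZH2 KO and 3 SUZ12 KO) and are shown only beside the WT clone. The comparison asks how far the unedited clone had moved from the line it was derived from. The WT clone is 1 clone, so the effect of having picked that clone, of the Cas9 insertion and of the selection steps cannot be told apart, and nothing says whether libraries of the same experiment came from separate cultures. The p-values therefore measure the spread between these libraries, which may be technical.

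Ewing sarcoma cells are driven by the fusion oncoprotein EWS::FLI1, which opens enhancers at GGAA repeats and keeps NR0B1, NKX2-2, CCND1 and other genes on, while mesenchymal genes such as collagens are held low. A cultured line of this kind is a mixed population. A clone is grown from a single cell of such a population, and its cells can go on changing in culture.

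Libraries held 16358857 to 20366240 counts. The mean chi-square per gene between the WT clone and parental libraries of the same experiment was 10.9 (experiment 3) to 46.7 (experiment 1). Parental libraries of different experiments differed by 79.4 to 186, and WT clone libraries of different experiments by 32.6 to 161. In experiment 1 the WT clone libraries differed from their own parental library by 45.6 and 46.7. They differed less from the libraries of experiment 3, by 32.6 and 35.3 (WT clone) and 34.8 and 37.9 (parental). The reason was not tested. WT clone libraries Ra and Rb gave 1.33 where sampling alone gives about 1, and R1 and R2 gave 9.41. Each value below is a normalized value in CPM (a gene's counts scaled to library size, with TMM factors from all 22 libraries), and each log2 fold change is WT clone over parental, fitted with the experiment as a term (edgeR's quasi-likelihood test, Benjamini-Hochberg adjustment over 14167 genes).

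Identity came first. The Ewing sarcoma markers were expressed in all 8 libraries, and 0 of the 8 tested markers differed at adjusted p under 0.05 (edgeR). CCND1, a G1 cyclin, was at 2589 ± 677 CPM in the WT clone (SD, n = 5) and 2551 ± 409 in the parental line (SD, n = 3). NR0B1, a nuclear receptor kept on by EWS::FLI1, was at 98.7 ± 28.3 and 79.8 ± 28.1, and FLI1, whose 3′ part is in the fusion, at 69.9 ± 9.63 and 74.8 ± 12.5. CD99 was listed at 0 in every library and says nothing here. In bulk RNA, fewer cells of a kind and less RNA per cell cannot be told apart. The 6 haematopoietic markers summed to at most 0.856 CPM in any library and the 4 endothelial markers to at most 2.20 CPM, with HBB, CD3E and KRT5 at 0 in all 8. Epithelial markers other than KRT8 and KRT18 and the fibroblast marker FAP stayed near 0, while PDGFRB (148 ± 15.5 and 136.5 ± 30.5 CPM) and the collagens COL1A1 and COL3A1 were well expressed by both.

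The genes that the study went on to edit did not pass the test either. STAG2 was at 290, 297, 292, 353 and 273 CPM in WT clone libraries Ra, Rb, R1, R2 and that of experiment 3, and at 281, 257 and 258 CPM in the parental libraries of experiments 1 to 3. Its log2 fold change was 0.17 ± 0.09 (SE, adjusted p = 0.409 by edgeR). STAG1, EZH2 and SUZ12 had log2 fold changes of 0.07 ± 0.10, −0.03 ± 0.08 and −0.01 ± 0.08, and 0 of 15 cohesin genes and 0 of 12 PRC2 genes were called. PPP1R12C (chr19:55090914-55117637, hg38), which hosts the Cas9 cassette in an intron, was at 64.0 ± 8.39 CPM in the WT clone and 63.8 ± 12.7 in the parental line (log2 fold change −0.02 ± 0.13). Of the 28 genes within 250 kb, PPP1R12C included, 13 were tested and 0 were called, with a median log2 fold change of −0.13 against −0.01 over all tested genes.

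Across all genes, 385 of 14167 were called at adjusted p under 0.05, that is 2.72%. In the WT clone, 249 were higher (1.76% of the tested genes) and 136 lower (0.96%), and 190 of the 385 differed by more than 2-fold. In 382 of the 385 the sign was the same in all 3 experiments, and in 207 every WT clone library lay on the same side of every parental library. The calls were made from these same libraries, so both counts are in large part set by the selection and are no separate support. Over all tested genes the groups did not overlap in 3.2% (1.84% higher and 1.36% lower in the WT clone).

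The size of this list rests on how the WT clone libraries are counted. With the libraries of each experiment summed, so that 3 were set against 3, 8 genes (0.0571% of 14014) were called: S100A6, FAM50B, VAT1, POSTN, ZNF43, NEFH, RGS1 and SLC35F1. All 8 were among the 385, and 376 of the 385 kept their sign. A fit over all 22 libraries also called 8, of which 2 (S100A6 and FAM50B) were shared by both. Without experiment 2 edgeR called 0 genes, with 1721 at an unadjusted p under 0.05. The other calls below were not called in the summed fit. Of these, C8orf88, ELOVL2 and SRPX2 were among the 8 called over all 22 libraries (adjusted p = 5.04e-05, 0.00163 and 0.0396, edgeR). Calls made in neither of these fits rest on the 5 against 3 fit.

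**Figure D1:**
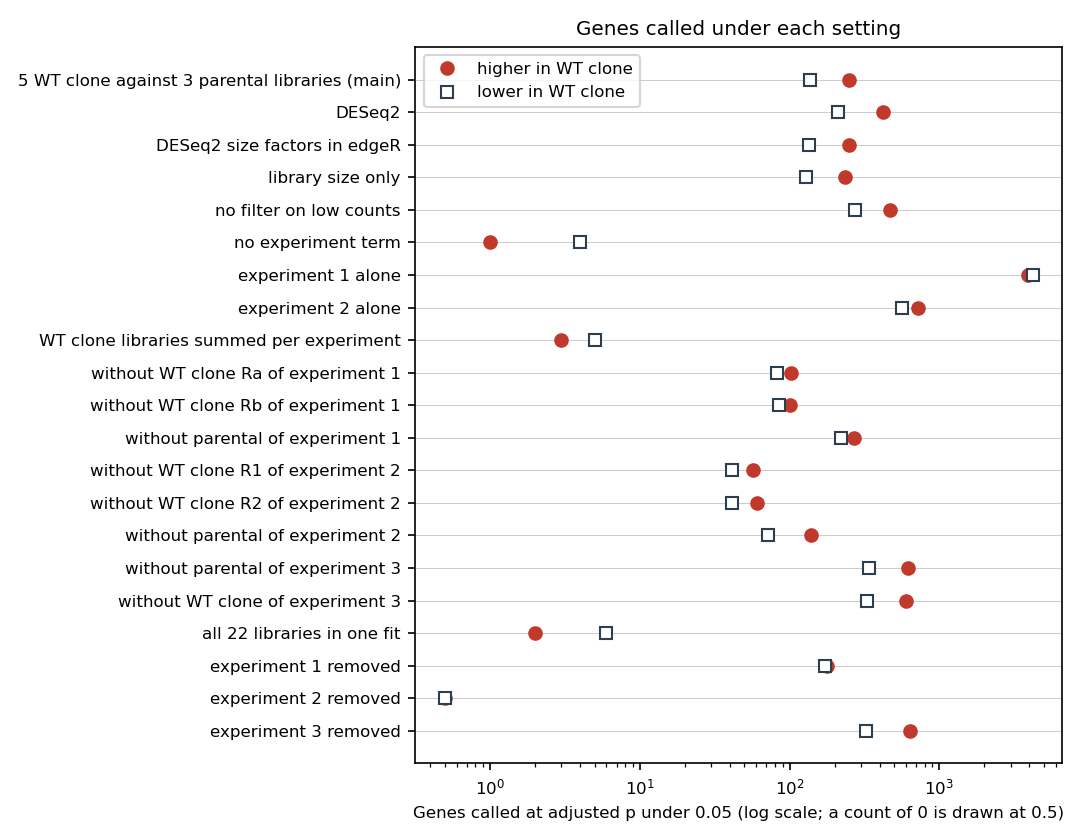
Genes called at adjusted p under 0.05, higher (filled circles) and lower (open squares) in the WT clone, for each way of fitting the same libraries, on a log axis. The counts run from 0 without experiment 2 to 8113 in experiment 1 alone, and a count of 0 is drawn at 0.5.

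S100A6 and FAM50B were near zero in the WT clone and on in the parental line. S100A6 encodes a small calcium-binding protein of the S100 family and lies at chr1:153534599-153536244 (hg38, minus strand). It was at 0.115, 0.052, 0.224, 0 and 0.216 CPM in the 5 WT clone libraries, at or below 4 counts in each, and at 20.4, 42.7 and 13.4 CPM in the parental libraries of experiments 1, 2 and 3. The log2 fold change was −7.66 ± 0.35 (adjusted p = 2.59e-05, edgeR). In the 14 edited libraries it reached at most 0.318 CPM.

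FAM50B is an imprinted gene, expressed from the paternal copy, at chr6:3849373-3851320 (plus strand). WT clone libraries held 0.287, 0.156, 0.224, 0.126 and 0 CPM against 13.8, 13.8 and 11.5 CPM in the parental line (log2 fold change −6.38 ± 0.32, adjusted p = 3.53e-05). All 14 edited libraries were below the lowest parental value, with a median of 0.265 and a highest value of 6.06 CPM. In A673 cells given a control siRNA, a separate experiment whose values are the authors' normalized counts on another scale, both genes were on: S100A6 was listed at 651, 748 and 789 and FAM50B at 88.6, 105 and 122.9. The adjusted p of S100A6 passed 0.05 in 19 of 20 alternative fits and that of FAM50B also in 19 of 20. The highest values were 0.0971 and 0.0983, in the fit without experiment 2.

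The promoters of S100A6 and FAM50B are shown because their transcripts were nearly absent in the WT clone, and those of THBS2 and POSTN as examples of genes that rose. They run from 250 bases before to 50 after the RefSeq start (GRCh38.p14), 5′ to 3′ on the strand of the gene, with each CpG in capitals.
S100A6, chr1:153535942-153536241 (minus): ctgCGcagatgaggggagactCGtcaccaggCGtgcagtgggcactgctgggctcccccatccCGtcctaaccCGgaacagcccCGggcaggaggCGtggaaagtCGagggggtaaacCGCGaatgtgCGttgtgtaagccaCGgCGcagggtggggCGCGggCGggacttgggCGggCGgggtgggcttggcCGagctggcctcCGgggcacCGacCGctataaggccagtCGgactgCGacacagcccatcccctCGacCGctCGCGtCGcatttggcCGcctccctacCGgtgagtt
FAM50B, chr6:3849123-3849422 (plus): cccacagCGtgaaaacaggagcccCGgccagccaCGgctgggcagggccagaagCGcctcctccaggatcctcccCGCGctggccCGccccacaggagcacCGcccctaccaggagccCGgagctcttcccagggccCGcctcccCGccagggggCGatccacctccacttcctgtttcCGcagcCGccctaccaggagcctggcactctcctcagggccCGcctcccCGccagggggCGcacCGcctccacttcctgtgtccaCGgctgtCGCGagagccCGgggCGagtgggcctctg
THBS2, chr6:169253797-169254096 (minus): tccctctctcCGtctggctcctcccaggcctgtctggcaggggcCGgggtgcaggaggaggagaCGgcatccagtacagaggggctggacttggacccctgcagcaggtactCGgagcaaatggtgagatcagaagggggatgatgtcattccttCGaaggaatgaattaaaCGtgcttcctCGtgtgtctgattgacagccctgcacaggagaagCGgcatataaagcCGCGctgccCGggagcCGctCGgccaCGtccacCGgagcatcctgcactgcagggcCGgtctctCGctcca
POSTN, chr13:37598719-37599018 (minus): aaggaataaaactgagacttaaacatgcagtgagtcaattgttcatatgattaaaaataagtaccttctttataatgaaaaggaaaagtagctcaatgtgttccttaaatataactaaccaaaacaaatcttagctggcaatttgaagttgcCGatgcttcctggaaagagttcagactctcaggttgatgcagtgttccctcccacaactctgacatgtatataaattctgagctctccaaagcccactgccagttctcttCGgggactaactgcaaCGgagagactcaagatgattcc
These windows held 31 CpG in S100A6, 23 in FAM50B, 17 in THBS2 and 3 in POSTN, and 20.4%, 35.6%, 46% and 81.0% of 27305 RefSeq promoters held at least as many. Among called genes with a promoter in the table, the 106 lower in the WT clone had a median of 22 CpG and the 180 higher a median of 24.5, against 26 over 11035 tested genes. A pair of adjoining GGAA units (GGAAGGAA, either strand) was in the promoter window of 2 of the 106 (1.89%), 3 of the 180 (1.67%) and 3.33% of all. DNA methylation was not measured in these libraries.

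NEFH, the heavy neurofilament subunit, was at 2.30, 1.87, 1.56, 0.753 and 0.432 CPM in the WT clone and 14.3, 16.7 and 10.6 CPM in the parental line (log2 fold change −3.51 ± 0.29, adjusted p = 0.000794). VAT1, a vesicle membrane protein, was at 28.1, 25.9, 17.9, 16.9 and 18.5 CPM against 73.6, 50.02 and 73.7 CPM (−1.62 ± 0.11, adjusted p = 0.000237). In both genes the lowest parental library was well above the highest WT clone library. ELOVL2, which elongates polyunsaturated fatty acids, was at 4.16 ± 1.58 and 26.9 ± 5.88 CPM (−2.69 ± 0.21). CEP41, a centrosomal and ciliary protein, was at 5.08 ± 3.02 and 25.4 ± 4.04 CPM (−2.55 ± 0.31). Smaller log2 fold changes were those of ST3GAL1, a sialyltransferase (3.36 ± 1.37 and 9.78 ± 2.36 CPM, −1.57 ± 0.17), and DENND5B (2.88 ± 1.84 and 10.2 ± 3.5 CPM, −1.76 ± 0.23). The neuropeptide gene CCK was at 2.77 ± 0.535 and 8.78 ± 5.55 CPM (−1.66 ± 0.23). LTBR, the lymphotoxin beta receptor, was at 10.2, 12.6, 3.58, 2.63 and 7.61 CPM in the WT clone and 24.5, 29.9 and 28.1 CPM in the parental line (−2.09 ± 0.32). UNCX, a homeobox gene, was at 3.62, 3.38, 0.447, 0.502 and 5.29 CPM against 8.08, 6.43 and 18.5 CPM (−2.07 ± 0.35). In these 5 genes every WT clone library was below every parental library. TGFBI, an extracellular matrix protein induced by TGF-beta, was at 65.5, 63.2, 21.2, 19.9 and 35.6 CPM in the WT clone and 80.5, 100.1 and 262 CPM in the parental line, so that its log2 difference was −0.32 in experiment 1, −2.28 in experiment 2 and −2.88 in experiment 3.

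Edited clones did not all keep these levels. CEP41 and LTBR were below the lowest parental library in 14 of 14 edited libraries. ELOVL2 was below it in 7 and above the highest parental library in 3, ST3GAL1 was below in 4 and above in 8, and NEFH ran from 0.0565 to 54.5 CPM.

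Among the genes higher in the WT clone, POSTN, which encodes periostin, was at 2.47, 2.50, 17.9, 21.5 and 2.43 CPM in the WT clone and 0.259, 2.07 and 0.238 CPM in the parental line (log2 fold change 3.26 ± 0.21, adjusted p = 0.000187). The levels of both groups were higher in experiment 2, and the log2 difference was 2.82, 3.18 and 2.88 in experiments 1, 2 and 3. THBS2, or thrombospondin 2, was at 2.07, 1.40, 11.6, 9.66 and 1.46 CPM against 0.155, 0.112 and 0.0475 CPM. With at most 3 counts in any parental library, THBS2 was at least 31.2-fold higher in the WT clone (its mean against the level of 3 counts per library).

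EDIL3, an integrin-binding matrix protein, was at 19.1 ± 8.92 and 5.10 ± 4.19 CPM (log2 fold change 2.20 ± 0.29), and it was above the highest parental library in all 14 edited libraries. SRPX2 was at 40.0 ± 7.27 and 10.8 ± 5.6 CPM (1.94 ± 0.30), and BMP5, a bone morphogenetic protein, at 11.5 ± 3.71 and 4.90 ± 2.76 CPM (1.45 ± 0.16). FIBIN was at 3.67, 4.26, 1.06, 1.13 and 0.216 CPM in the WT clone and at 1 count in each parental library, at least 12.3-fold higher on the mean. Such bounds, as for THBS2, use the mean over experiments and need not hold in each. In experiment 3 the WT clone library held 4 counts of FIBIN. RGS1, a regulator of G protein signalling, was at 1.95, 1.35, 2.68, 3.95 and 2.32 CPM against 0.104, 0.112 and 0.0951 CPM, at least 14.6-fold higher. In the 3 control siRNA libraries THBS2 and FIBIN were listed at 0. Other genes called higher in the WT clone were on there. The semaphorin gene SEMA5B was listed at 77.2, 68.9 and 54.2 and the interferon-stimulated gene IFITM2 at 208.7, 233.2 and 241.7. On that scale STAG2, which was not called, was listed at 1068, 992 and 1090. Whether the control siRNA levels are nearer to the WT clone or to the parental line was not tested.

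TP63, a p53 family factor of basal epithelium, was at 58.0, 54.2, 10.9, 11.3 and 29.4 CPM in the WT clone and 8.13, 2.69 and 10.4 CPM in the parental line (2.16 ± 0.22, adjusted p = 0.00221). FOXA1, a pioneer factor of endoderm and gland epithelium, was at 8.54 ± 2.74 and 2.13 ± 0.716 CPM (1.97 ± 0.26). CNTN6, a neural contactin, was at 26.1 ± 6.99 and 7.57 ± 1.10 CPM (1.70 ± 0.22), and SEMA5B, a semaphorin, at 10.8 ± 3.82 and 2.96 ± 0.379 CPM (1.71 ± 0.26). PTPRO, a receptor phosphatase, was at 14.2, 15.1, 15.9 and 14.8 CPM in experiments 1 and 2 but at 3.13 CPM in the WT clone library of experiment 3, just above the highest parental value of 2.90 CPM. C8orf88 (15.7 ± 2.17 and 3.40 ± 1.74 CPM, 2.32 ± 0.23) and SLC26A7, an anion exchanger (9.81 ± 0.913 and 3.59 ± 3.02 CPM, 1.75 ± 0.34), were also among the 12 genes that rose most, as was FUT9, given with chromosome 6. The libraries do not mark strand, and LTBR, FOXA1, PTPRO, SRPX2 and C8orf88 each overlap a gene on the opposite strand (SCNN1A, TTC6, RERG, SYTL4 and NECAB1), as do S100A6, ELOVL2, THBS2, LOX and TP73, so reads of the pair cannot be told apart.

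**Figure D2:**
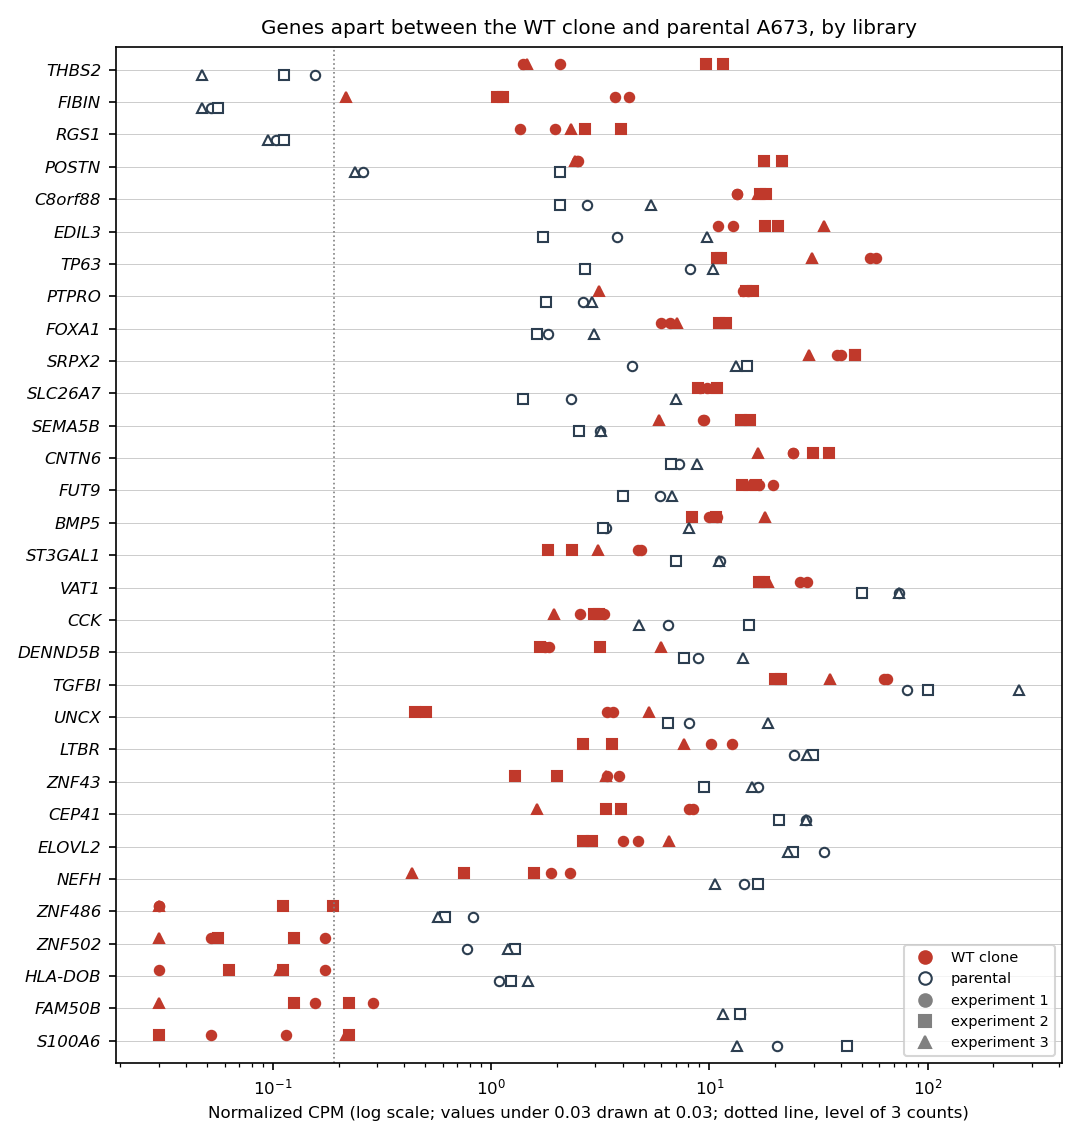
Normalized CPM of each library on a log axis, for the 12 genes that rose and the 12 that fell most (mean of at least 5 CPM, groups apart), FAM50B, and the 6 genes called at 3 counts or fewer in every library of a group; filled symbols are the WT clone and open symbols the parental line. S100A6 and FAM50B sit near or below the level of 3 counts in the WT clone and above 10 CPM in the parental line.

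Mesenchymal genes that EWS::FLI1 is known to repress were among the genes that moved. Members and lists, here and below, were chosen with earlier results of these data known. Their shares are therefore counts with no test and may be biased by that choice. Of 32 tested members of the mesenchymal list, 7 were higher and 2 lower in the WT clone, 28.1% against 2.72% of all genes, with a median log2 fold change of 0.20. The 7 were POSTN, the hyaluronan receptor CD44 (1.09 ± 0.15), the collagen crosslinking enzyme LOX (0.86 ± 0.14), smooth muscle actin ACTA2 (0.80), the ectonucleotidase NT5E (0.79) and the collagen chains COL1A2 (0.68) and COL5A1 (0.64). The 2 lower were S100A6 and TPM1, a tropomyosin (−0.61). CD44 was at 5.74, 6.55, 35.1, 36.3 and 4.54 CPM in the WT clone and 2.49, 20.2 and 1.71 CPM in the parental line, so the groups overlap across experiments but not within any of them. The list median was 0.18, 0.20 and 0.23 in experiments 1, 2 and 3.

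Collagen genes as a family, a list added after the values were seen, were then counted with no test. COL1A2 and COL5A1 are in this list as well as among the mesenchymal genes above. They are counted as higher in both, so the lists are not independent. Of 27 tested, 6 were higher (22.2%, against 1.76% of all genes) and 0 lower. A log2 fold change above 0 was found in 24, where the share among all genes with a chromosome was 46.7%, and the median was 0.50. COL8A2 (1.34 ± 0.24) and COL18A1 (0.98 ± 0.22) were among the 6. COL25A1, a neuronal transmembrane collagen, was at 47.2 ± 16.8 and 21.5 ± 10.3 CPM (1.26 ± 0.14), and COL21A1 at 249.6 ± 52.3 and 150.3 ± 59.0 CPM (0.87 ± 0.10). The family median was 0.51, 0.66 and 0.16 in the 3 experiments. Of the fibroblast markers, 0 of 6 were called, and LUM, a matrix proteoglycan, had a log2 fold change of −1.93 ± 0.45 (adjusted p = 0.0608).

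Of 25 tested genes that EWS::FLI1 activates, 1 was called (4.0%, against 2.72% of all genes), the receptor tyrosine kinase gene KIT (9.65 ± 1.06 and 15.2 ± 2.03 CPM, log2 fold change −0.63 ± 0.12), and the list median was 0.08. The study grouped EWS::FLI1 targets by where the fusion binds: at the promoter, or at a long or short GGAA repeat in a distal region that the promoter touches in capture Hi-C. Against 2.72% of all genes, 11 of 151 tested genes of the long class were higher and 1 lower (7.95% called), 20 of 674 of the short class were higher and 12 lower (4.75%), and 10 of 546 of the promoter class were higher and 8 lower (3.3%). The last share is close to that of all genes. The medians were 0.13, −0.01 and −0.03. FIBIN, the complement gene C7 (1.42 ± 0.20), TMEM200A (1.02 ± 0.19) and the neuropeptide Y receptor gene NPY5R (0.86 ± 0.14) had the largest changes of the first class. In the promoter class they were BNC1 (3.02 ± 0.47), CCK, STAR (1.51 ± 0.22) and the p53 family gene TP73 (1.48 ± 0.22). In the class of short repeats POSTN and TGFBI stood with the malic enzyme gene ME3 (−2.53 ± 0.47) and C6orf141 (−1.99 ± 0.35).

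Neural and neuroendocrine genes moved both ways. Of 31 tested, 6 were higher and 3 lower, 29.0% called against 2.72% of all genes. The higher ones were CNTN1, a contactin (1.15 ± 0.24), the adhesion gene NCAM1 (0.67), the receptor EPHA3 (0.66), SEMA3C (0.64), the neuropeptide NPY (0.51) and CNTNAP2 (0.41), and the lower ones were NEFH, CCK and the ephrin receptor EPHA7, at 12.2 ± 1.51 and 20.7 ± 1.04 CPM (−0.79 ± 0.11). Among 23 tested p53 targets 3 were higher (13.0%, against 1.76% of all genes) and 0 lower. CDKN1A, the p21 cell cycle inhibitor, was at 40.5, 39.4, 21.5, 17.4 and 47.7 CPM against 19.5, 11.6 and 22.9 CPM (0.95 ± 0.11), higher than the parental library in each experiment. GDF15 (1.96 ± 0.42) was at 44.7 and 43.6 CPM in the WT clone of experiment 1 and at 0.879 to 9.07 CPM in the others, and FDXR had a log2 fold change of 0.51 ± 0.10. MDM2, a p53 target that limits p53, was at −0.07 (adjusted p = 0.703).

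Among 11 tested antigen presentation genes, 3 were lower (27.3%, against 0.96% of all genes) and 0 higher. They were PSMB8, an immunoproteasome subunit (3.37 ± 2.29 and 8.13 ± 4.27 CPM, −1.19 ± 0.21), and the peptide transporter genes TAP1 (4.38 ± 2.85 and 9.50 ± 4.07 CPM, −1.05 ± 0.19) and TAP2 (31.2 ± 4.59 and 48.3 ± 12.9 CPM, −0.65 ± 0.14). They lie beside each other in the MHC on the short arm of chromosome 6, TAP2 at chr6:32821833-32838739, PSMB8 at chr6:32840717-32844679 and TAP1 at chr6:32845209-32853816. HLA-DOB, next to TAP2 at chr6:32812763-32820466, had at most 3 counts in each WT clone library and 1.09, 1.23 and 1.47 CPM in the parental line, at least 6.72-fold lower on the mean. B2M, the light chain of MHC class I, had a log2 fold change of 0.37 (adjusted p = 0.0536) and did not pass. PSMB8 and TAP1 overlap PSMB8-AS1 and PSMB9 on the other strand.

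The remaining lists had 0 to 2 calls each, apart from the STAG2 signature, and are set against 2.72% of all genes. Interferon-stimulated genes had 2 of 33 higher, IFITM2 (1.09 ± 0.18) and IFITM1 (0.73 ± 0.14), or 6.06%. Hypoxia and glycolysis genes had 1 higher, VEGFA (0.59 ± 0.11), and 1 lower, NDRG1 (−1.13 ± 0.14), of 26 (7.69%), and clustered protocadherins had 1 higher, PCDHGC3 (0.41), and 1 lower, PCDHGB2 (−1.13), of 41 (4.88%), genes of a cluster that share exons. Among 18 imprinted genes the paternally expressed zinc finger gene PEG3 was higher, at 938, 964, 1046, 1122 and 1099 CPM in the WT clone and 620.4, 657 and 539 CPM in the parental line (0.77 ± 0.09, adjusted p = 0.00369), and FAM50B was lower (11.1% called). No member was called among 34 proliferation, 25 cholesterol and fatty acid synthesis, 26 ATF4 target or 26 HOX genes. The cholesterol list is a case of experiment-bound change: its median log2 difference was −1.44 in experiment 1, 0.43 in experiment 2 and −0.04 in experiment 3. Of 222 tested genes of the STAG2 signature, 13 were higher and 4 lower (7.66%), with a median of 0.15. That signature was chosen in part on these libraries, so its count is not independent evidence. NEB (−2.34 ± 0.36), DNAJC6 (−2.33 ± 0.35), FOXA1 and PDCD1 (1.42 ± 0.27) had its largest changes. NEB was at 1.503, 30.9 and 0.666 CPM in the parental libraries of experiments 1, 2 and 3, its log2 difference was −0.14 in experiment 3, and without the parental library of experiment 2 its log2 fold change was −1.43 (adjusted p = 0.238, edgeR). The log2 difference of PDCD1 was 0.03 in experiment 2.

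**Figure D3:**
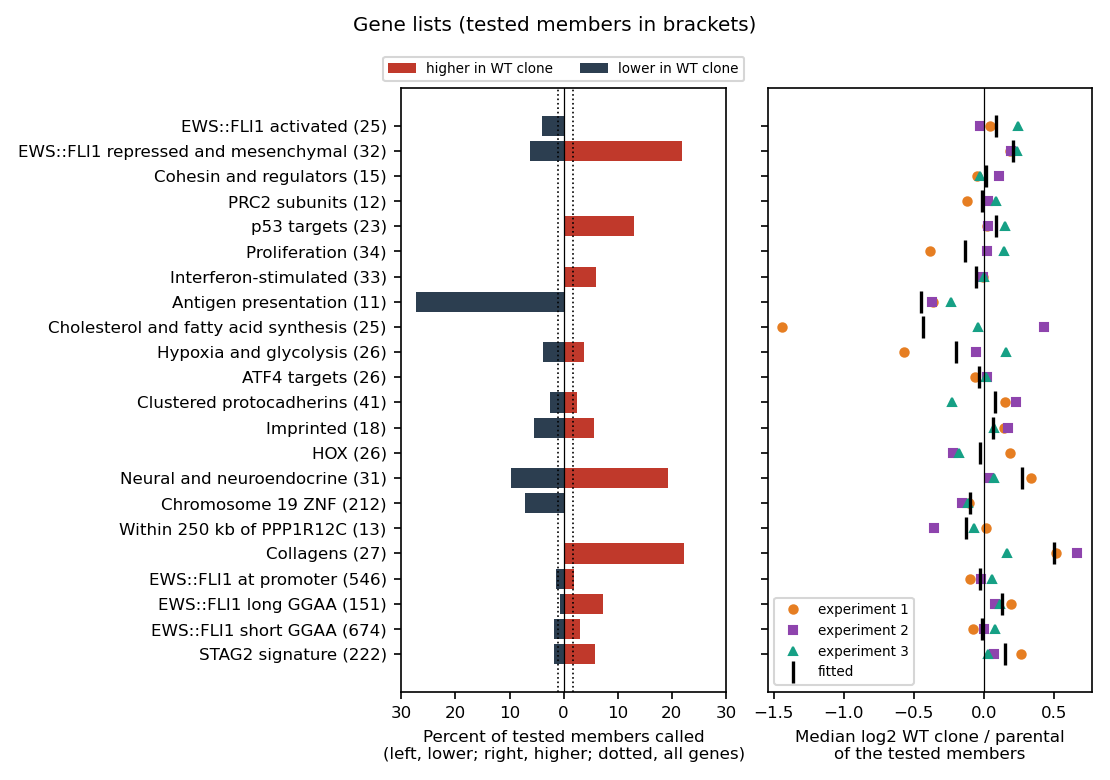
Left, the percentage of tested members of each list called higher (right of zero) or lower (left of zero) in the WT clone, with dotted lines at 1.76% and 0.96% for all genes; right, the median log2 WT clone over parental of each list, fitted and in each experiment. Antigen presentation genes were called lower only, mesenchymal genes and collagens mostly higher, and the cholesterol list changed sign between experiments.

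Zinc finger genes of chromosome 19, KRAB-domain repressors that sit in clusters of near copies, had more members below 0 than above. Of 212 tested, 15 were lower (7.08%, against 0.96% of all genes and 1.49% of chromosome 19) and 0 higher. Those 15 are all the lower calls among the 1009 tested genes of chromosome 19. The shares given for that chromosome include the zinc finger genes and are no separate background. A log2 fold change above 0 was found in 62, where the share was 46.7% over all genes and 42.6% over chromosome 19, with a median of −0.10 and of −0.11, −0.16 and −0.11 in experiments 1, 2 and 3. ZNF43 was at 3.39, 3.85, 1.28, 2.01 and 3.35 CPM in the WT clone and 16.7, 9.40 and 15.7 CPM in the parental line (−2.31 ± 0.16, adjusted p = 0.000298), and 11 of 14 edited libraries were below the lowest parental value. ZNF93, a KRAB zinc finger gene, was at 0.503 ± 0.269 and 2.97 ± 1.14 CPM (−2.57 ± 0.42) and stayed below the parental range in all 14 edited libraries. ZNF486 was at 3 counts or fewer in each WT clone library and at least 3.57-fold lower, and ZNF560 (0.0718 ± 0.104 and 1.28 ± 0.488 CPM) and ZNF44 (0.0998 ± 0.117 and 0.860 ± 0.153 CPM) were also close to that level. On chromosome 3, ZNF502 was at least 5.76-fold lower. Short reads of such near copies may be shared between them by the counting, so single members are uncertain.

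Chromosomes differed little as a whole. Less the median over all genes, the median log2 fold change was 0.0606 on chromosome 6 and −0.0362 to 0.0458 on the others. For chromosome 6 it was 0.0385, 0.127 and 0.0262 in experiments 1, 2 and 3. No window of 50 neighbouring tested genes (12602 windows) departed by more than 0.3 in the same direction in each of the 3 experiments. In the fit, 194 windows lay more than 0.2 above the all-gene median and 13 more than 0.2 below, and all of them were on chromosome 6.

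The higher windows were on the long arm, and the arm as a whole, a region picked after these values were seen and so given with no test, was then described. Of its 312 tested genes (chr6:63521746-170584692), 259 (83.0%) had a log2 fold change above 0, against 40.5% to 56.7% on the other chromosomes. Those were taken whole and not by arm, and chromosome 6 taken whole had 56.3%. Its median was 0.23 above that of all genes in the fit, and 0.24, 0.34 and 0.12 above it in experiments 1, 2 and 3. In 49.4% of its genes the difference was above 0 in every experiment, against 13.8% of all tested genes. On the long arm 35 genes were called higher and 6 lower, so 11.2% were called higher, against 0.817% to 3.36% on the other chromosomes, and they made up 14.1% of all higher calls. The 388 tested genes of the short arm had a median of −0.06.

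Named by their level among those called and apart, again after their values were seen, were EPB41L2, a membrane skeleton protein, PRSS35, a serine protease homologue, SERINC1 and CD164, a sialomucin. EPB41L2 was at 612, 602, 547, 563 and 595 CPM in the WT clone and 351, 351 and 414 CPM in the parental line (0.67 ± 0.08, adjusted p = 0.00369). PRSS35 was at 452, 460, 399, 421 and 483 CPM against 241, 249 and 294 CPM (0.80 ± 0.08, adjusted p = 0.00221). These shifts were small beside those of single genes, and the groups did not overlap. CD164 (280.3 ± 17.4 and 216 ± 23.7 CPM) and SERINC1 (292 ± 23.96 and 207 ± 36.4 CPM) had log2 fold changes of 0.40 ± 0.08 and 0.53 ± 0.11. THBS2, FUT9, a fucosyltransferase that makes the Lewis x antigen (16.4 ± 2.04 and 5.56 ± 1.38 CPM, 1.59 ± 0.16), and SLC35F1 (34.6 ± 15.1 and 14.2 ± 5.95 CPM, 1.41 ± 0.11) are also on this arm, with EPHA7 as 1 of the 6 lower.

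**Figure D4:**
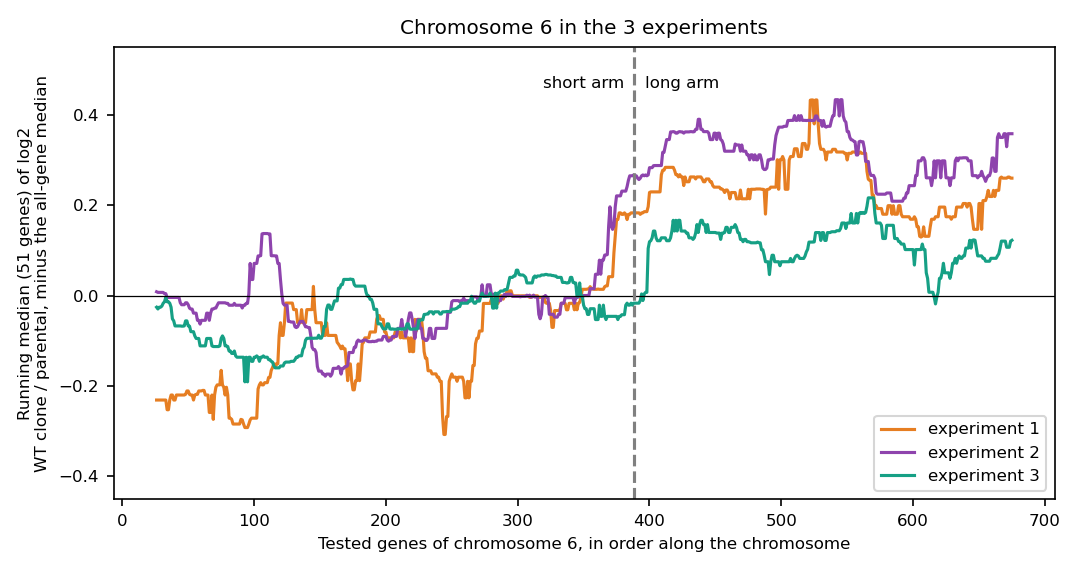
Running median over 51 tested genes of the log2 difference between WT clone and parental, less the all-gene median, for genes of chromosome 6 in their order along the chromosome, 1 line per experiment, with the centromere dashed. The long arm is above zero almost throughout in the 3 experiments, least in experiment 3, and the short arm is mostly near or below zero.

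The long arm also differed among libraries. Relative to the parental library of its experiment and to all genes, its median was 0.242, 0.226, 0.276, 0.375 and 0.119 in the 5 WT clone libraries. In the edited clones, set against the same parental libraries and so not independent of the WT clone values, 7 of 14 libraries lay at 0.43 to 0.599: all 3 STAG1 KO (0.54, 0.579 and 0.575), 2 EZH2 KO (0.599 and 0.52), 1 SUZ12 KO (0.43) and 1 STAG2 KO of experiment 2 (0.448). In 4 libraries, both STAG2 KO of experiment 1, 1 EZH2 KO and 1 SUZ12 KO, it was between −0.0292 and −0.00572. The other 3 lay at 0.125 to 0.26. DNA copy number was not measured.

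**Figure D5:**
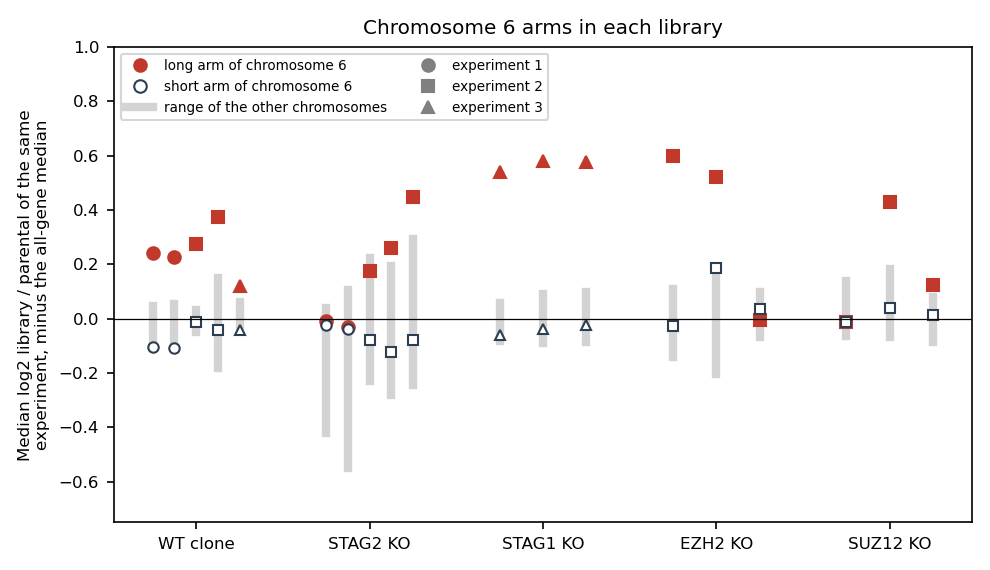
Median log2 ratio of each WT clone and edited library to the parental library of its experiment, less the all-gene median, for the long arm (filled) and short arm (open) of chromosome 6, with the range of all other chromosomes in grey. The WT clone libraries lie at 0.119 to 0.375 on the long arm, between edited libraries near zero and edited libraries at 0.43 to 0.599.

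Calls made in 2 experiments were looked up in the one left out, where neither the clone nor the parental library had been used. Of 349 genes called from experiments 2 and 3, 299 (85.7%) had the same direction in experiment 1, against 53.6% of all tested genes, and the median log2 difference there was 0.72 for those called higher and −0.70 for those called lower. Of 964 called from experiments 1 and 2, 612 (63.5%) had the same direction in experiment 3, against 47.8% of all, with medians of 0.16 and −0.07. Experiments 1 and 3 together called none, so nothing could be looked up in experiment 2. The same 349 genes had the direction of the WT clone in 61.3% and 60.7% for the 2 STAG2 KO libraries of experiment 1 (45.1% and 45.8% of all tested genes), and the 964 in 53%, 70.2% and 60.3% for the STAG1 KO libraries of experiment 3 (42.3%, 53.5% and 49.6%).

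The effect of the clone was also set between experiments. Over the 8 libraries 2337 of 14167 genes (16.5%) had a different WT clone effect in experiment 2 than in experiment 1 (edgeR interaction, adjusted p under 0.05), where the residual spread came only from Ra against Rb and R1 against R2. With all 22 libraries in the fit, 0 of 15575 (0.0%) did, with 476 at an unadjusted p under 0.05. LTBR and UNCX were among the 2337, with log2 differences between WT clone and parental of −1.10 and −1.18 in experiment 1 and −3.24 and −3.49 in experiment 2.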

How the data were processed

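RNA was taken from A673 cells in culture (5 WT clone and 3 parental libraries in 3 experiments), made into non-directional libraries with oligo-dT priming and template switching, and read as 86-nt single ends. The authors aligned reads to hg38 with TopHat2 2.0.0 (submitters' processing notes, which also name SAMtools 0.1.16 and Bowtie 0.12.7), allowing 2 mismatches and 5 multi-hits, and deposited raw counts per gene. The counter and annotation are not given in the sources used here. For the siRNA experiment the deposited values were the authors' normalized signal (counts divided by a scaling factor), listed only as levels and not tested.

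Counts were tested with edgeR 4.0.16 (R 4.3.3) by the quasi-likelihood test after TMM scaling and filterByExpr, with group and experiment as terms, and p-values were adjusted by Benjamini-Hochberg. DESeq2 1.42.0 was an alternative. The test was first tried on simulated data. A difference within an experiment is the mean log2 CPM of the WT clone less that of the parental library, with a prior count of 2, and so understates the change of low genes. Columns of per-sample values not used numbered 0.

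Named genes were the 12 highest and 12 lowest log2 fold changes among the calls whose average was 5 CPM or more and whose groups were apart, the edited genes and PPP1R12C, up to 4 called members of each list with the largest change, 3 called genes in each direction with at most 3 counts in every library of a group, and the cell type markers. Genes called in the summed fit, the long arm of chromosome 6, collagens and other list members were named after their values were seen. Members and lists were chosen with earlier results of these data known. Gene positions and promoters were taken by symbol from GENCODE release 44 and RefSeq. Cancer-testis antigens (43 listed, 2 tested, 0 called) were also counted. Alternatives were other scaling, no filter, no experiment term, single experiments, summed libraries, all 22 libraries, and each library left out. Leaving out whole experiments was added after seeing the data.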

Additional observations from a re-analysis of the deposited data

Results flagged for a closer look

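A single WT clone library stood apart from the other 4 in 11 of the 104 genes looked at (Dixon's criterion for 5 values, which exchangeable values meet by chance in about 1 of 20 groups). In 8 of them it was the library of experiment 3: BMP5 at 17.9 CPM, PTPRO at 3.13, PCDHGC3 at 143, TMEM200A at 6.37, PDCD1 at 13.9, COL5A1 at 429, NPY at 87.8 and CNTNAP2 at 72.8 CPM. The other 3 were ZNF560 in R2 (0.251 CPM), DNAJC6 in Ra (0.632 CPM) and COL18A1 in R1 (48.8 CPM). The 5 libraries come from 3 experiments, with Ra and Rb in the same one, as are R1 and R2. They are not exchangeable, so the rate of 1 in 20 does not hold here. Experiment 3 had 1 WT clone library, so these values do not set that library apart from its experiment.

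The WT clone effect differed between experiments 2 and 1 (interaction term, edgeR, 8 libraries, adjusted p under 0.05) in 22 of the 104 genes looked at. Over all tested genes it differed in 2337 of 14167 (16.5%), so the list is no property of the named genes. None of the 22 passed in the fit of all 22 libraries. The difference, experiment 2 less experiment 1 on the log2 scale, was below 0 for CEP41 (−0.76), LTBR (−2.17), UNCX (−2.54), TGFBI (−1.96), CCK (−1.16), SRPX2 (−1.51), PPP1R12C (−0.76), IFITM1 (−0.67), TP73 (−1.01), C7 (−1.01), ME3 (−2.90), C6orf141 (−2.19), CCND1 (−0.40) and ACTA2 (−0.53). It was above 0 for SEMA5B (0.96), EDIL3 (1.81), VEGFA (0.48), PDGFRB (0.44), LUM (3.04), COL1A1 (1.39), COL3A1 (1.02) and COL1A2 (0.63).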

How the results depend on the processing

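The count of 385 called genes became 631 with DESeq2, 741 with no filter on low counts, 5 without the experiment term, 8 with the WT clone libraries summed, 8 with all 22 libraries in the fit, 8113 in experiment 1 alone and 1286 in experiment 2 alone. It was 383 with DESeq2's size factors, 364 with library size only and 349 without experiment 1. Left out after seeing the data, experiment 2 gave 0 (1721 at an unadjusted p under 0.05) and experiment 3 gave 964. Leaving out 1 library each gave 98 (without R1) to 953 (without the parental library of experiment 3), with 184 without Ra, 186 without Rb, 102 without R2, 211 without the parental library of experiment 2 and 924 without the WT clone library of experiment 3. The cause was not tested. Between 375 and 385 of the 385 kept their direction in each of these fits, which share libraries with the main fit and are no separate support. Of 14167 genes, 2337 differed in effect between experiments 1 and 2 with 8 libraries, 2747 with no filter and 0 with all 22 libraries. Direction held for 63.5% of calls looked up in experiment 3 and 85.7% in experiment 1. In experiment 1 alone the sign turned for PPP1R12C (0.39), STEAP1 (−0.19), COL1A1 (−0.46) and KRT18 (−0.31). The experiment pairs the groups and is a term of the fit, and the fit of summed libraries (8 calls) compares 3 such pairs. By replicate number within an experiment, no paired analysis was possible because the parental libraries carry none that matches the WT clone. An exact permutation test within experiments has 18 relabellings and cannot go below 0.0556. Each group has 1 library in at least 1 experiment, so its spread is assumed to be that of the others.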
